A study of Homo sapiens with 11 samples.

Results

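Genes for the proteins of the pre-mRNA splicing machinery were followed in ARP1 myeloma cells in which PHF19 was knocked down or overexpressed. With earlier results of these data known, the genes were chosen by a rule on symbols alone. The rule took every listed gene whose name begins with SRSF, HNRNP, SF3A, SF3B, SNRP, PRPF or U2AF followed by a letter or digit. This gave 71 genes out of 15124 named in either of the 2 tables. The knockdown table held 70 of them among 14458 listed genes, and the overexpression table held 57 among 11062. Both tables list 56 of the genes. HNRNPU-AS1, an antisense RNA that matches only by its name, is in the overexpression table alone. The other 14, which include HNRNPA1, HNRNPC, SRSF2, SRSF10 and SNRPN, are in the knockdown table alone.

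Splicing removes introns from a primary transcript on the spliceosome, which is built from the U1, U2, U4/U6 and U5 small nuclear ribonucleoproteins (snRNPs). U1 recognises the donor splice site, the U2AF heterodimer reads the polypyrimidine tract and the AG at the acceptor site, and the SF3A and SF3B complexes of the U2 snRNP hold the branch site. The SR proteins (SRSF genes) mostly promote the use of exons whose enhancers they bind, the hnRNPs coat nascent RNA and often repress exons, the SNRP genes encode snRNP proteins with the Sm ring at their core, and the PRPF genes encode pre-mRNA processing factors of the U4/U6.U5 tri-snRNP and of the catalytic stage. Myeloma cells are malignant plasma cells that secrete large amounts of immunoglobulin, and their cytoplasm is devoted to protein export.

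RNA-seq libraries came from 4 groups of ARP1, a myeloma cell line of human origin labelled IgA kappa. The libraries were PHF19 shRNA (shPHF19, n = 3), scramble control (n = 3), PHF19 overexpression (PHF19 OE, n = 2) and empty vector (EV, n = 3). PHF19 joins Polycomb repressive complex 2 as an accessory protein that reads histone marks, while EZH2 is the enzyme of the complex, and the title of the series concerns its part in growth, drug resistance and EZH2 phosphorylation. The OE and EV cells carried a PCDH lentiviral plasmid packaged in HEK293T cells, and OE cells were sorted for PHF19 overexpression, with no sort named for EV cells. How the shRNA was delivered, whether its libraries share 1 hairpin, and whether replicates were separate cultures the labels do not say, so p-values measure the spread between these libraries, which may be technical. The genotype tag of the scramble and shPHF19 libraries repeats the overexpression wording, and their groups were taken from the titles.

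The values are length- and depth-normalised abundances, called FPKM here although the headers name no unit, so levels of different genes are compared per length. Read depth is unknown, and the values listed summed to 501348 to 524966 in shPHF19 libraries, 470294 to 526068 in scramble libraries, 498485 and 502349 in PHF19 OE libraries, and 425155 to 426112 in EV libraries. PHF19 itself had 75.2, 103 and 108 FPKM in shPHF19 libraries, against 113, 152 and 123 FPKM in scramble libraries (log2 fold change -0.44, limma adjusted p = 0.147, or 0.0445 with replicate numbers as a block). It had 227 and 213 FPKM in PHF19 OE libraries, against 111, 119 and 115 FPKM in EV libraries (log2 fold change 0.93, limma adjusted p = 0.0438). The knockdown value was -0.28 without shPHF19 replicate 1. The overexpression call was lost in 10 and kept in 4 of the alternatives run, with adjusted p from 0.00744 to 0.264 and a log2 fold change of 0.75 to 0.97. Of 11 plasma cell markers, 10 were listed in each table, with summed levels of 1461 to 1878 FPKM in shPHF19 libraries against 1832 to 2049 in scramble libraries, and of 4386 to 11554 in PHF19 OE libraries against 2554 to 3559 in EV libraries. The 2 listed epithelial or kidney markers summed to 5.61 to 7.19 FPKM in shPHF19 libraries and 9.82 to 14.6 in scramble libraries, and the 3 listed monocyte markers to 0.87 to 1.41 FPKM in shPHF19 libraries and 1.51 to 2.69 in scramble libraries. In the overexpression table the 2 listed monocyte markers summed to 0.396 and 7.56 FPKM in PHF19 OE libraries, against 0 to 0.057 in EV libraries, and the 1 listed epithelial or kidney marker to 3.501 and 5.77 FPKM in PHF19 OE libraries, against 4.56 to 7.38 in EV libraries. Their part in the results was not tested.

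Promoter windows are shown for the 3 genes that passed the test in the knockdown and for SNRPB and U2AF1, the close relatives of 2 of them. Each window covers 250 bases before and 50 bases after the gene's start in RefSeq (GRCh38.p14), which gives 1 start per gene, and reads 5′ to 3′ on the gene's own strand. Capitals mark matches on either strand to 4 motifs. The letters searched for an E-box, the site of MYC and its relatives, were CACGTG. A GC box, the site of SP1 and other zinc finger proteins, was searched as GGGCGG. For the site of ETS factors the letters were CCGGAAG. The CCAAT box was searched by the letters of its name. HNRNPD lies at chr4:82373942-82374241 (minus strand), SNRPN at chr15:24856321-24856620 (plus strand), SNRPB at chr20:2470740-2471039 (minus strand), U2AF1L4 at chr19:35745369-35745668 (minus strand) and U2AF1 at chr21:43107521-43107820 (minus strand). The first holds an ETS match, a GC box and an E-box, SNRPB a single ETS match, SNRPN 2 and U2AF1 4 GC boxes, and U2AF1L4 none of these.
HNRNPD: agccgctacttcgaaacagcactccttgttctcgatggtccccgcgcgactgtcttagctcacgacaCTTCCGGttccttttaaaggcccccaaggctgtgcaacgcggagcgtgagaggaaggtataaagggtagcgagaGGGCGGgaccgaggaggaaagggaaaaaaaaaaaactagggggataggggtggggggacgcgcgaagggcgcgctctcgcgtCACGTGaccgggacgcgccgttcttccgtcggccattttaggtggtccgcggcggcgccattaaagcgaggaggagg
SNRPN: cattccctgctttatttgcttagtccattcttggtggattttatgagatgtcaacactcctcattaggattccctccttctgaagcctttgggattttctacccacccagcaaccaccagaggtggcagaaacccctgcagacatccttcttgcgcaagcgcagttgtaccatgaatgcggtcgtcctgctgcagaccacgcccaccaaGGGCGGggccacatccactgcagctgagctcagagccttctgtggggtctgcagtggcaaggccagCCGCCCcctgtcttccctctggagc
SNRPB: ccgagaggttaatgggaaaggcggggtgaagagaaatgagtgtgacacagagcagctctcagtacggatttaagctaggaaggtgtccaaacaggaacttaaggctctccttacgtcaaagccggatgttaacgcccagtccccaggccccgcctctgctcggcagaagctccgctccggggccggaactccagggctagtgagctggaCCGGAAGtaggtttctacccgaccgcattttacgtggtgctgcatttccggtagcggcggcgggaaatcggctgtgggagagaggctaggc
U2AF1L4: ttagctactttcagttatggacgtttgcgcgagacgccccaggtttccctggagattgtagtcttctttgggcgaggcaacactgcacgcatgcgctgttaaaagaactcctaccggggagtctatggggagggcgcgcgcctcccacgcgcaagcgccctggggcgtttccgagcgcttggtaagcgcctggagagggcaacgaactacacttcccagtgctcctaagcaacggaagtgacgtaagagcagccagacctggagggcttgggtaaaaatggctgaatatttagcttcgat
U2AF1: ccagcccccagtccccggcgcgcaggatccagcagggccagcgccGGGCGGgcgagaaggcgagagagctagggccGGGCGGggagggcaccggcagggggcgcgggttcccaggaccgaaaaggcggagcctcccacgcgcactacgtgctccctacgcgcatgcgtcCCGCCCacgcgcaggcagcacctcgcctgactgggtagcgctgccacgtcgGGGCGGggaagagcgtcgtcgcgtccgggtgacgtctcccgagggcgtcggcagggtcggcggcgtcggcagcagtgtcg

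RefSeq windows were matched for 61 of the 71 genes. The ETS letters were in 21 of them (34.4%), among them SNRPB, SNRPE, SNRPG, SNRPD2, all 3 SF3A genes, SF3B2, SF3B4, SF3B6 and HNRNPD. They were in 10.7% of all 27305 windows and in 20.9% of the 8567 windows of genes tested in the knockdown. The GC box was in 38 (62.3%), against 44.6% of all windows and 71.8% of those tested. The E-box was in 8 (13.1%), against 7.43% and 10.7%, and 6 of the 8 were hnRNP genes other than HNRNPD, beside SF3B1. The CCAAT box was in 26 (42.6%), against 35.7% and 37.2%. The cAMP response element (TGACGTCA) and the amino acid response element (TGATGNAAT) were in 0 of the 61, against 1.98% and 1.02% of all windows. Among the windows of genes tested the shares were 3.41% and 0.409%. No motif searched contains another, and a match is a string of letters, not a site shown to be bound.

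In the knockdown, splicing factor genes mostly had slightly lower abundance in shPHF19 than in scramble libraries, but few single genes passed the test. Of the 70 genes, all of them tested, 59 had a log2 fold change below 0 (84.3%, against 45.6% of the 10900 genes tested), and their median was -0.27, against 0.03 over all genes. Only HNRNPD fell (1 of 70, against 1.28% of all genes), and U2AF1L4 and SNRPN rose (2 of 70, against 4.24%), by limma with Benjamini-Hochberg adjusted p under 0.05. In either direction 5.51% of all genes were called. In this fit, without the replicate block, these shares of calls are close to or below those of all genes. At an unadjusted p under 0.05 there were 28 genes, 25 of them lower, where 24.1% of all genes were under that level and 8.74% were lower. Every shPHF19 library lay below every scramble library for 30 of the 70 (42.9%, against 13.0%), and above it for 3 (4.29%, against 18.9%). The 70 genes are more abundant than most, with a median scramble mean of 90.5 FPKM, against 6.71 over all 14458 listed genes. The part of level in these shares was not tested. Abundances are relative within a library and pooled over cells, so fewer cells of a kind and less RNA per cell cannot be told apart, and gene-level values do not separate isoforms.

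The lower level was present in each shPHF19 library. Relative to the scramble mean, the median over the 70 genes was -0.32, -0.21 and -0.24 (log2) in the 3 shPHF19 libraries and 0.06, -0.01 and -0.05 in the 3 scramble libraries, so the groups did not overlap. The same median over all genes tested was -0.01, 0.07 and 0.05 in shPHF19 libraries and -0.06, 0.02 and 0.05 in scramble libraries. With replicate numbers as a block, 8 of the 70 genes fell, a share above the 3.68% of all genes that did. Another 3 rose, a share below the 8.20% of all genes that did. With library weights the counts were 29 lower and 4 higher, against 10.6% and 18.4% of all genes, and with median-of-ratios scaling 3 lower and 2 higher, against 1.74% and 3.75%. Over all genes the calls were 462 higher and 139 lower, but 377 and 206 with quantile normalisation and 408 and 189 with median-of-ratios scaling. Leaving out 1 library at a time left 0 to 2 lower and 0 to 2 higher calls among the 70, with none at all without shPHF19 replicate 3 or without scramble replicate 2.

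**Figure D1:**
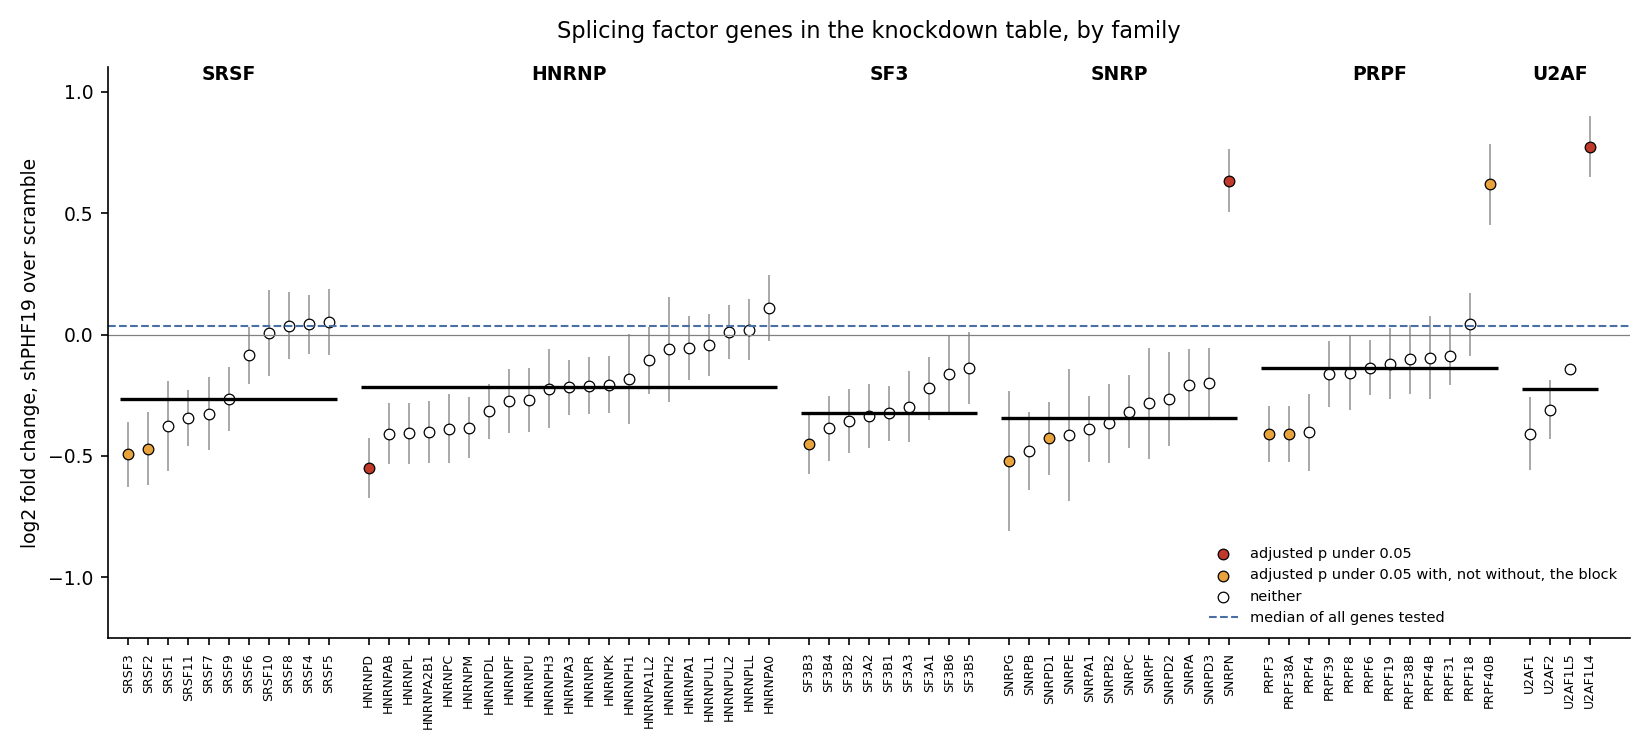
Log2 fold change (shPHF19 over scramble, on log2(FPKM + 1)) of 69 of the 70 genes in the knockdown table, by family, with 1 point per gene, its standard error as a bar, the median over the whole family as a solid line and the median of all genes as a dashed line (red, adjusted p under 0.05; orange, with the replicate block and not without it; U2AF1L5 is drawn without its bar). The points lie mainly below 0 in each family, the median is lowest for SNRP (-0.34) and SF3 (-0.33) and nearest to 0 for PRPF (-0.14), and U2AF1L4, SNRPN and PRPF40B stand above the rest.

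The families differed in how uniform they were, a contrast given here without a test because the list was chosen with results known. All 9 SF3 genes were below 0 (median -0.33, range -0.45 to -0.14). Of 12 SNRP genes, 11 were (median -0.34, -0.52 to 0.63), of 21 HNRNP genes 18 (median -0.22, -0.55 to 0.11), and of 13 PRPF genes 11 (median -0.14, -0.41 to 0.62). Of 11 SRSF genes, 7 were below 0 (median -0.27, -0.49 to 0.05), and 3 of the 4 U2AF genes were (median -0.22, -0.41 to 0.77). The SF3 family thus held the narrowest range and the PRPF family the median closest to that of all genes. This order of medians did not hold without scramble replicate 1. The median was then -0.16 for SNRP, -0.18 for PRPF and -0.23 for SF3 genes. All family medians stayed below 0 under quantile normalisation and median-of-ratios scaling. The SRSF median was -0.16 without shPHF19 replicate 1 and -0.18 without scramble replicate 1. The U2AF median, over few genes, was 0.06 without shPHF19 replicate 3, -0.13 without shPHF19 replicate 2, 0.27 without scramble replicate 1, -0.34 without scramble replicate 2 and -0.36 without scramble replicate 3.

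The U2AF heterodimer defines the acceptor splice site. U2AF1L4, a paralog of the small subunit U2AF1 that can take its place in the dimer, rose, with 18.2, 18.2 and 18.6 FPKM in shPHF19 libraries, against 11.3, 9.62 and 10.1 FPKM in scramble libraries. The 2 sets of values did not overlap and varied little within a group (log2 fold change 0.77, SE 0.13, limma adjusted p = 0.015). Without shPHF19 replicate 3 or scramble replicate 2 the adjusted p was 0.0508 and 0.0718. U2AF1L4 overlaps PSENEN on the opposite strand (log2 fold change 0.17, adjusted p = 0.644 for PSENEN) and AD000671.2 on its own strand in the GENCODE v29 annotation, and whether counting used strand is not given. U2AF1, which reads the AG, had 199, 278 and 261 FPKM in shPHF19 libraries, against 313, 349 and 311 FPKM in scramble libraries. All 3 shPHF19 values were the lower ones, with a log2 fold change of -0.41 that did not pass (limma adjusted p = 0.134). The large subunit U2AF2, which binds the polypyrimidine tract, had 112, 131 and 136 FPKM in shPHF19 libraries, against 159, 151 and 158 FPKM in scramble libraries (log2 fold change -0.31, adjusted p = 0.159 by limma). U2AF1L5, a near-identical copy of U2AF1 whose reads may be split with it, had 48.7, 10.1 and 5.28 FPKM in shPHF19 libraries, against 69.04, 4.83 and 10.4 FPKM in scramble libraries and is uncertain.

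The SF3A and SF3B complexes anchor U2 to the branch site, and none of their 9 genes passed the test by limma. At an unadjusted p under 0.05 there were 5 of the 9, all lower, where 8.74% of all genes were lower at that level. SF3B3, a large scaffold subunit of SF3B, had 33.8, 38.1 and 41.2 FPKM in shPHF19 libraries, against 51.5, 48.03 and 55.9 FPKM in scramble libraries. Its groups did not overlap (log2 fold change -0.45, limma adjusted p = 0.0641, or 0.0303 with the block). SF3B4, which contacts RNA upstream of the branch site, had 143, 142 and 149.6 FPKM in shPHF19 libraries, against 223, 169 and 180.3 FPKM in scramble libraries (log2 fold change -0.39, adjusted p = 0.116). SF3B1, the subunit that clamps the branch helix and is recurrently mutated in blood cancers, had 66.04, 69.7 and 70.2 FPKM in shPHF19 libraries, against 80.4, 86.05 and 92.7 FPKM in scramble libraries (log2 fold change -0.33, adjusted p = 0.119). SF3B2 and SF3A2 also had all shPHF19 values below all scramble values, which makes 5 of 9 SF3 genes (55.6%, against 13.0% of all genes). The small SF3B5 and SF3B6 were closest to 0, at -0.14 and -0.16, with overlapping groups.

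No SR protein gene passed the test. SRSF3, the smallest SR protein and an adaptor for mRNA export, had 102, 94.6 and 82.5 FPKM in shPHF19 libraries, against 142, 137 and 116 FPKM in scramble libraries. Every shPHF19 value lay below every scramble value (log2 fold change -0.49, limma adjusted p = 0.0608, or 0.0202 with the block). SRSF2, which binds exonic enhancers, had 141, 197 and 187 FPKM in shPHF19 libraries, against 223, 258 and 241 FPKM in scramble libraries. This difference too missed the threshold without the block and passed with it (log2 fold change -0.47, adjusted p = 0.0949 without and 0.0339 with the block), and it was called with library weights as well. SRSF11 and SRSF9 were the other 2 of the 4 with groups apart, at -0.34 and -0.27. These 4 are 36.4% of the SRSF genes, against 13.0% of all genes apart and lower. SRSF1, the founding member of the family, had 53.4, 88 and 80.5 FPKM in shPHF19 libraries, against 83.1, 97.3 and 103 FPKM in scramble libraries, and its groups overlapped in that shPHF19 replicate 2 exceeded scramble replicate 1 (log2 fold change -0.38, adjusted p = 0.242). SRSF4, SRSF5, SRSF8 and SRSF10 had log2 fold changes of 0.01 to 0.05, with overlapping groups. The family therefore split into SRSF1, SRSF2, SRSF3, SRSF7, SRSF9 and SRSF11 at -0.49 to -0.27 and the 5 others at -0.09 to 0.05, a grouping made after the values were seen.

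Among hnRNPs, HNRNPD fell. HNRNPD, also called AUF1, binds AU-rich elements and controls the decay of the mRNAs that carry them. It had 201, 222 and 216 FPKM in shPHF19 libraries, against 342, 297 and 298 FPKM in scramble libraries. The highest shPHF19 value stood well below the lowest scramble value (log2 fold change -0.55, SE 0.12, limma adjusted p = 0.0346). Without shPHF19 replicate 1 the adjusted p was 0.0384, without any 1 of the other 5 libraries it was 0.0662 to 0.131, and with no filter on low values it was 0.0579. HNRNPD overlaps the antisense gene AC124016.1. Its paralogs HNRNPDL and HNRNPAB had log2 fold changes of -0.32 and -0.41 and groups that did not overlap (adjusted p = 0.128 and 0.0875).

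HNRNPL, which binds CA repeats, had 251, 276 and 279 FPKM in shPHF19 libraries, against 389, 335 and 347 FPKM in scramble libraries (log2 fold change -0.41, adjusted p = 0.0866 by limma). HNRNPA2B1, a reader of exonic silencers, had 353, 382 and 347 FPKM in shPHF19 libraries, against 519, 468 and 444 FPKM in scramble libraries (log2 fold change -0.40, adjusted p = 0.0943). HNRNPC, which binds uridine tracts and keeps Alu exons out of mRNA, had 167, 169 and 153 FPKM in shPHF19 libraries, against 256, 199.99 and 189.9 FPKM in scramble libraries (log2 fold change -0.39, adjusted p = 0.131). In these 3 genes, as in 12 of the 21 hnRNP genes in all (57.1%, against 13.0% of all genes), the groups did not overlap and shPHF19 was lower. The most abundant splicing factor gene, HNRNPA1, was near no difference, with 889, 862 and 841 FPKM in shPHF19 libraries, against 948, 931 and 819 FPKM in scramble libraries (log2 fold change -0.05, adjusted p = 0.832). HNRNPA0, HNRNPUL2 and HNRNPLL were the 3 hnRNP genes above 0, at 0.11, 0.01 and 0.02, with groups that overlapped.

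The Sm proteins SNRPB, SNRPD1, SNRPD2, SNRPD3, SNRPE, SNRPF and SNRPG form the ring around the U1, U2, U4 and U5 RNAs. All 7 had a log2 fold change below 0 (median -0.41, range -0.52 to -0.20), and none passed the test. SNRPB had 186, 241 and 254 FPKM in shPHF19 libraries, against 332, 344 and 270.3 FPKM in scramble libraries (log2 fold change -0.48, adjusted p = 0.106 by limma), and SNRPD1 had 36.02, 39.2 and 33.9 FPKM in shPHF19 libraries, against 53.2, 56.7 and 39.3 FPKM in scramble libraries (log2 fold change -0.43, adjusted p = 0.123, or 0.0411 with the block). These 2 were the Sm genes whose groups did not overlap (28.6% of the 7, against 13.0% of all genes). SNRPG, the Sm gene with the shortest median transcript, had 125, 100.3 and 73.8 FPKM in shPHF19 libraries, against 207, 146 and 91.2 FPKM in scramble libraries. Its libraries with equal replicate numbers ran in parallel, so that the adjusted p was 0.306 without and 0.0269 with the block at a log2 fold change of -0.52, while the groups overlapped. Its log2 fold change was -0.24 without scramble replicate 1, -0.32 without shPHF19 replicate 3 and -0.83 without scramble replicate 3. SNRPE had 60.3, 50.1 and 41.7 FPKM in shPHF19 libraries, against 96.98, 73.8 and 42.04 FPKM in scramble libraries, and SNRPF had 83.5, 77.04 and 76.8 FPKM in shPHF19 libraries, against 139, 98.8 and 65.2 FPKM in scramble libraries. In SNRPE, SNRPF and SNRPG alike, scramble replicate 1 was the highest and scramble replicate 3 the lowest of the scramble libraries.

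The Sm genes varied more among scramble libraries than the list as a whole. Their median SD on log2(FPKM + 1) was 0.20 in shPHF19 libraries and 0.37 in scramble libraries, against 0.14 and 0.13 for the 70 genes and 0.17 in each group for all genes. They also have short transcripts, with a median length of 723 bases against 1769 for all genes tested. The SD was 0.61 for SNRPE, 0.59 for SNRPG and 0.54 for SNRPF in scramble libraries. Over the 12 SNRP genes the library medians were -0.26, -0.32 and -0.31 in shPHF19 libraries, against 0.25, 0.08 and -0.30 in scramble libraries. Scramble replicate 3 thus lay at the level of the shPHF19 libraries for this family. The SNRP median was -0.51 without scramble replicate 3 and -0.16 without scramble replicate 1. The part of transcript length in these values was not tested.

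**Figure D2:**
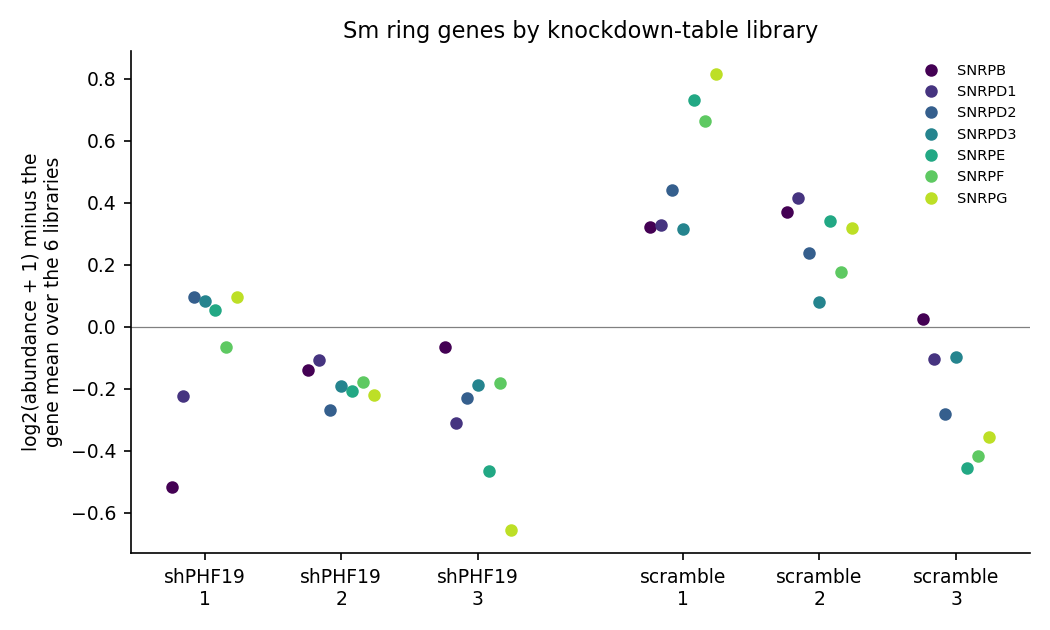
Levels of the 7 Sm ring genes in the 6 knockdown-table libraries, shPHF19 at left and scramble at right, as log2(FPKM + 1) minus the gene mean over the 6 libraries; each point is 1 gene in 1 library. Scramble replicate 1 is high and scramble replicate 3 low, and the shPHF19 libraries spread less.

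The snRNP-specific proteins had the same sign. SNRPA1, which belongs to U2, had 156, 195 and 183 FPKM in shPHF19 libraries, against 254, 238 and 209 FPKM in scramble libraries, and its groups did not overlap (log2 fold change -0.39, adjusted p = 0.121 by limma). SNRPB2 of U2, SNRPC of U1 and SNRPA of U1 had log2 fold changes of -0.37, -0.32 and -0.21, and their groups overlapped. SNRPN, an imprinted paralog of SNRPB that is abundant in brain, rose and was the only SNRP gene above 0. It had 20.2, 18.5 and 18.8 FPKM in shPHF19 libraries, against 11.7, 13.4 and 10.9 FPKM in scramble libraries. No shPHF19 value reached down to a scramble value (log2 fold change 0.63, SE 0.13, limma adjusted p = 0.0267). The adjusted p was 0.0341 without shPHF19 replicate 1 and 0.0564 to 0.0949 without any 1 of the other 5 libraries. SNRPN shares its transcript with SNURF on the same strand, and SNURF had 23.6, 17.8 and 19.03 FPKM in shPHF19 libraries, against 13.6, 9.83 and 10.03 FPKM in scramble libraries (log2 fold change 0.80, adjusted p = 0.0267). Reads of these 2 genes cannot be told apart in gene-level values.

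None of the 13 PRPF genes passed the test. By limma 5 of them had an unadjusted p under 0.05 (24.1% of all genes did), 4 of them lower (8.74% of all genes). PRPF3, a U4/U6 protein mutated in a form of retinitis pigmentosa, had 39.3, 45.3 and 42.7 FPKM in shPHF19 libraries, against 54.2, 58.2 and 57.5 FPKM in scramble libraries. PRPF38A, which joins the spliceosome before activation, had 27.3, 25.8 and 24.99 FPKM in shPHF19 libraries, against 37.5, 33.7 and 33.4 FPKM in scramble libraries. Both had groups that did not overlap, and both missed the threshold without the block and passed with it (log2 fold change -0.41, adjusted p = 0.0652 for PRPF3 and log2 fold change -0.41, adjusted p = 0.0678 for PRPF38A without it, 0.0339 and 0.0344 with it). Both were also called with library weights, and PRPF3 with median-of-ratios scaling. PRPF4, the U4/U6 partner of PRPF3, was at a log2 fold change of -0.40 (adjusted p = 0.154). The core factors were closer to 0: PRPF8, the scaffold at the heart of U5, had 111, 114 and 131 FPKM in shPHF19 libraries, against 126, 112 and 162 FPKM in scramble libraries (log2 fold change -0.16, adjusted p = 0.573), and PRPF19, a ubiquitin ligase of the active spliceosome, had 121, 155 and 162 FPKM in shPHF19 libraries, against 174, 151 and 149 FPKM in scramble libraries (log2 fold change -0.12, adjusted p = 0.6499). Groups overlapped in both, and in PRPF6, PRPF31, PRPF38B, PRPF4B and PRPF18 as well. PRPF40B, a factor associated with U1, was the lowest in level of all 70 genes and had 3.43, 2.66 and 3.29 FPKM in shPHF19 libraries, against 1.38, 1.6 and 2.1 FPKM in scramble libraries. Its shPHF19 values were all higher (log2 fold change 0.62, limma adjusted p = 0.0593, or 0.0393 with the block).

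The 3 genes whose shPHF19 values all exceeded the scramble values were U2AF1L4, SNRPN and PRPF40B. U2AF1L4 and SNRPN are scarcer paralogs of U2AF1 and SNRPB, and their log2 ratios to these were compared, a choice made after the values were seen. The ratio of U2AF1L4 to U2AF1 averaged -3.66 ± 0.25 in shPHF19 libraries and -4.84 ± 0.19 in scramble libraries (SD, n = 3 each), a difference of 1.18. For SNRPN over SNRPB it averaged -3.49 ± 0.30 in shPHF19 and -4.60 ± 0.10 in scramble libraries, a difference of 1.11. The groups did not overlap in either ratio. The pairs were taken because 1 paralog was higher and the other lower in every shPHF19 library, which fixes that outcome. An exact permutation test of each ratio gave p = 0.1, the smallest value possible with 3 libraries against 3. The choice of pairs fixed this value too, so nothing is concluded from it and the ratios are a description. Other paralogs did not behave this way: HNRNPA1L2, far less abundant than HNRNPA1, had a log2 fold change of -0.11, and HNRNPDL and PRPF38B were below 0.

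**Figure D3:**
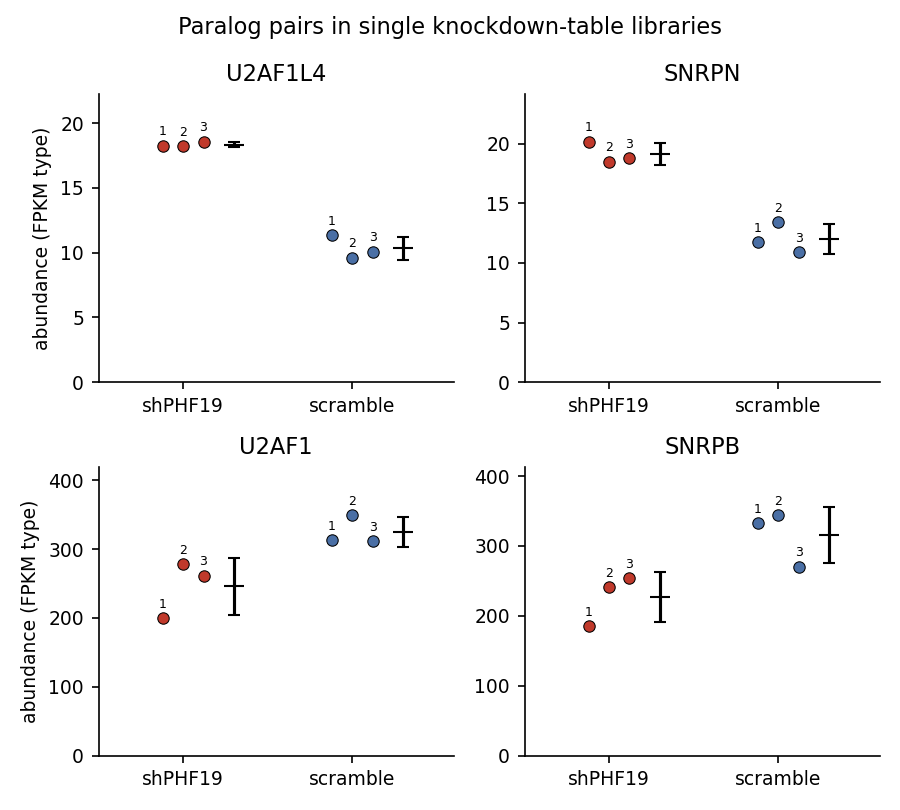
FPKM of 2 paralog pairs in single knockdown-table libraries, shPHF19 left and scramble right in each panel, with 1 numbered point per library and the group mean ± SD beside the points (n = 3 each). U2AF1L4 and SNRPN are higher in every shPHF19 library than in any scramble library, while U2AF1 and SNRPB are lower in every shPHF19 library.

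The genes of the list span a wide range of levels. Scramble means ran from 1.69 FPKM for PRPF40B to 899 FPKM for HNRNPA1. The family medians of these means were 163 FPKM for HNRNP, 99.4 for SF3, 92.0 for U2AF, 91.2 for SNRP, 64.8 for SRSF and 24.3 for PRPF. Next to HNRNPA1 stood HNRNPA2B1, with 361 ± 18.6 FPKM in shPHF19 libraries and 477 ± 38.6 FPKM in scramble libraries, and SNRPD2, with 353 ± 50.9 FPKM in shPHF19 libraries and 431 ± 105 FPKM in scramble libraries (SD, n = 3 each). The 3 genes with groups wholly above scramble were among the scarcer ones, at 1.69 to 12.01 FPKM in scramble libraries.

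Splicing genes outside the symbol pattern had the same tendency. Of 147 listed in 8 groups, 146 were in the knockdown table and 144 were tested. Of the 144, 117 were below 0 (81.25%, against 45.6% of all genes), with a median of -0.19. None rose, where 4.24% of all genes did, and 3 fell (2.08%, against 1.28%). With the block 5 fell, where 3.68% of all genes did. The shares called lower were thus near those of all genes. The snRNP assembly genes had the lowest median (-0.30, 15 of 16 below 0, 1 call). PRMT5, which methylates Sm proteins for assembly, fell and averaged 52.6 ± 6.47 FPKM in shPHF19 libraries and 78.1 ± 2.91 in scramble libraries. The U2 partners had 9 of 12 below 0 (median -0.19) and 1 call, the helicase DDX46, at 24.7 ± 0.28 FPKM in shPHF19 and 37.0 ± 3.09 in scramble libraries. The list of U5, U4/U6 and U1 proteins, which also holds proteins of the minor spliceosome, had 23 of 25 below 0 (median -0.21). Its 1 call was SNRNP25 of the minor spliceosome, at 66.1 ± 4.56 FPKM in shPHF19 and 94.3 ± 10.3 in scramble libraries (SD, n = 3 each). Their log2 fold changes were -0.57, -0.56 and -0.50, with limma adjusted p of 0.0332, 0.0274 and 0.0480 in the order PRMT5, DDX46, SNRNP25. The LSM ring (median -0.19, 7 of 8 below 0), the PRPF19 complex and catalytic steps (-0.18, 21 of 25), the exon junction complex (-0.27, 4 of 5), the other splicing regulators (-0.17, 23 of 31) and the SR-related proteins and SR kinases (-0.11, 15 of 22) had 0 calls by limma. In that order, 0, 2, 3, 5 and 2 of their genes had an unadjusted p under 0.05, where 24.1% of all genes did. Of these, 0, 2, 3, 4 and 2 were lower. Over all 144 genes, 25 were under that level and 24 of them were lower, where 8.74% of all genes were lower. Every shPHF19 library lay below every scramble library for 49 of the 144 (34.0%, against 13.0%), and above it for 4 (2.78%, against 18.9%).

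In the overexpression none of the splicing factor genes passed the test. Of 57 listed, 54 were tested, and 0 were called by limma (0.914% of the 10279 genes tested were), with 2 at an unadjusted p under 0.05, both lower (11.5% of all genes, 3.65% lower). Without genes listed at 0 in some library, 47 splicing factor genes remained, of which 31 had a log2 fold change below 0 (median -0.10, against 0.07 over all such genes). Over all genes tested 40.1% were below 0. PHF19 OE lay below every EV library for 9 of the 47 (12.0% of all genes without a 0) and above for 4 (23.3%). The 9 included SRSF1, SRSF5, SRSF7, SF3B1, PRPF3, PRPF38B, PRPF39 and PRPF4B, and the 4 were SNRPA, SNRPE, PRPF19 and PRPF6. The F or S that ends the sample descriptions differs between OE and EV libraries, as does the sort, and neither can be told apart from the group.

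EV replicate 5 stood apart from the other EV libraries in these genes. Relative to the EV mean, the median over the 47 genes was -0.09 and -0.11 in PHF19 OE libraries and 0.22, 0.13 and -0.35 in EV replicates 3, 4 and 5. Over all genes the same median was 0.08 and 0.07 in PHF19 OE libraries and -0.01 to 0.01 in EV libraries. The PHF19 OE libraries thus lay between the EV libraries for splicing factor genes. Without EV replicate 5, 38 of 53 tested genes were below 0 and PRPF4B and SF3B3 fell while SNRPD3, listed at 0 in EV replicates 3 and 4, was called higher, where 0.914% of all genes fell and 2.56% were called higher. Without EV replicate 3, 20 of 54 were below 0 and none was called. With library weights 8 genes fell, among them SRSF7, PRPF38B and PRPF4B (4.84% of all genes fell), and SNRPD3 was called higher (12.0% of all genes were). Over the tested splicing factor genes the median was -0.08, but -0.26 without EV replicate 5 and 0.05 without EV replicate 3, and it was -0.02 without PHF19 OE replicate 1 and -0.03 without EV replicate 4. Quantile normalisation, which moved the median of all genes from 0.09 to -0.04, gave 42 of 54 below 0.

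**Figure D4:**
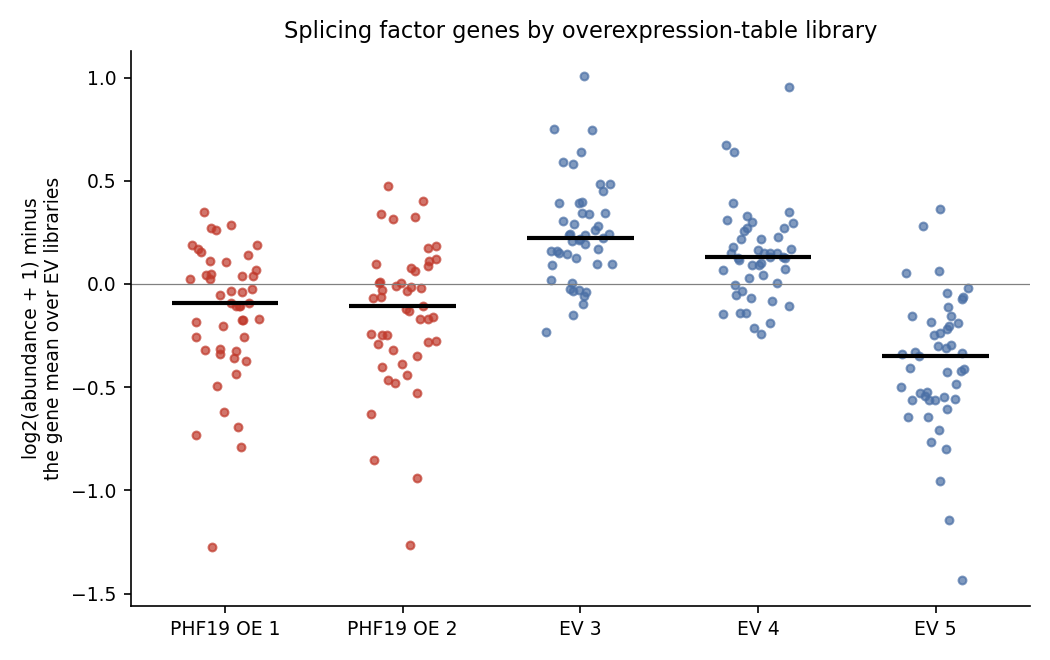
The 47 splicing factor genes with no listed 0 in the overexpression table, as log2(FPKM + 1) minus the gene mean over EV libraries, in the 2 PHF19 OE and the 3 EV libraries; each point is 1 gene and the line is the library median. The OE medians (-0.09 and -0.11) lie between EV replicate 3 (0.22) and EV replicate 5 (-0.35).

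SRSF7 and PRPF38B had the smallest p-values. SRSF7, a zinc-knuckle SR protein that also serves mRNA export, had 65.1 and 72.6 FPKM in PHF19 OE libraries, against 98.5, 98.1 and 105 FPKM in EV libraries. Both PHF19 OE values lay well below the EV values, which were close together (log2 fold change -0.54, SE 0.10, limma adjusted p = 0.246). PRPF38B, a relative of PRPF38A, had 12.6 and 11.3 FPKM in PHF19 OE libraries, against 21.95, 26.5 and 19.7 FPKM in EV libraries (log2 fold change -0.86, SE 0.17, adjusted p = 0.253). SRSF1 had 63.2 and 58.03 FPKM in PHF19 OE libraries, against 178, 92.5 and 71.3 FPKM in EV libraries (log2 fold change -0.79, adjusted p = 0.551), with EV replicate 3 far above the other libraries. PRPF4B, a kinase of the tri-snRNP, had 9.795 and 10.3 FPKM in PHF19 OE libraries, against 19.9, 20.03 and 11.1 FPKM in EV libraries (log2 fold change -0.66, adjusted p = 0.502), with EV replicate 5 near the PHF19 OE values. SF3B3 had 26.9 and 27.01 FPKM in PHF19 OE libraries, against 93.1, 129 and 23.9 FPKM in EV libraries, so its log2 fold change of -1.27 rests on EV replicates 3 and 4 (adjusted p = 0.594). SNRPA, the U1 protein that binds a stem loop of U1 RNA, was on the higher side, with 78.9 and 85.7 FPKM in PHF19 OE libraries, against 72.7, 58.2 and 63.6 FPKM in EV libraries (log2 fold change 0.34, adjusted p = 0.456).

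By family, SRSF genes had 7 of 8 below 0 in the overexpression (median -0.29) and were below 0 at the median under both other scalings. The medians were -0.07 for 13 tested HNRNP genes, 0.02 for 7 SF3 genes, 0.25 for 11 SNRP genes, -0.11 for 13 PRPF genes and -0.07 for 2 U2AF genes. The SF3 median was -0.12 under quantile normalisation and -0.06 under median-of-ratios scaling. The SNRP median was -0.12 without genes listed at 0, and the SRSF median was 0.03 without EV replicate 3. Without EV replicate 5 the medians were -0.23 for HNRNP, -0.18 for SF3, 0.05 for SNRP and -0.38 for U2AF genes. The HNRNP median was 0.05 without EV replicate 3, and the PRPF median ran from -0.38 to -0.03 over the settings run. No difference between families was tested. Of the splicing genes outside the symbol pattern, 126 were tested in the overexpression, with 73 below 0 (57.9%, against 40.1% of all genes) and a median of -0.06. There were 0 calls by limma, where 0.914% of all genes were called. At an unadjusted p under 0.05 there were 11, where 11.5% of all genes were under that level. Of the 11, 9 were lower, where 3.65% of all genes were lower at that level.

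Of the 57 genes, 10 were listed at 0 in at least 1 overexpression-table library, as were 19.2% of all genes in that table. HNRNPU, the nuclear scaffold hnRNP, had 0 and 203 FPKM in PHF19 OE libraries, against 0, 0 and 0 FPKM in EV libraries, and HNRNPU-AS1 had 0 and 8.01 FPKM in PHF19 OE libraries, against 0, 0 and 0 FPKM in EV libraries. U2AF1L4 had 0 and 14.1 FPKM in PHF19 OE libraries, against 0, 0 and 0 FPKM in EV libraries. These 3 were listed at 0 in 4 of 5 libraries and were not tested. HNRNPL had 0 and 289 FPKM in PHF19 OE libraries, against 245, 284 and 237 FPKM in EV libraries, and SNRPB had 154 and 163 FPKM in PHF19 OE libraries, against 0, 182 and 0 FPKM in EV libraries. Genes that every cell uses are thus listed at 0 beside values above 100 in another library of the same group, and no fold is given for them. SNRPD3 had 42.2 and 48.5 FPKM in PHF19 OE libraries, against 0, 0 and 30.1 FPKM in EV libraries, and SNRPD2 had 432 and 592 FPKM in PHF19 OE libraries, against 442, 433 and 0 FPKM in EV libraries. SF3B4 had 0 and 149 FPKM in PHF19 OE libraries, against 0, 132 and 62.7 FPKM in EV libraries, HNRNPUL1 had 162 and 153 FPKM in PHF19 OE libraries, against 135, 141 and 0 FPKM in EV libraries, and PRPF40B had 0 and 4.09 FPKM in PHF19 OE libraries, against 0, 0 and 4.301 FPKM in EV libraries. For U2AF1L4, SNRPB and PRPF40B the overexpression table therefore gives no value to set beside the knockdown, and SNRPN is in the knockdown table alone.

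The 47 genes with values in both tables were set side by side, each comparison with its own controls. Of these, 28 were below 0 in both (59.6%, against 21.2% of 7928 genes tested in both with no 0). Another 15 were below 0 in shPHF19 and above 0 in PHF19 OE (31.9%, against 24.9%). The 3 above 0 in shPHF19 and below 0 in PHF19 OE (6.38%, against 18.7%) were HNRNPA0, SRSF4 and SRSF5. PRPF18 alone was above 0 in both (2.13%, against 35.3%). Most of the 47 were below 0 in each comparison by itself. The share below 0 in both therefore does not show agreement gene by gene. None of these genes was called in both comparisons. HNRNPD, which fell in the knockdown, had 274 and 271 FPKM in PHF19 OE libraries, against 373, 303 and 203 FPKM in EV libraries (log2 fold change -0.06, adjusted p = 0.946). U2AF1 had 242 and 249.7 FPKM in PHF19 OE libraries, against 426, 287 and 167 FPKM in EV libraries (log2 fold change -0.15, adjusted p = 0.918). In both genes EV replicate 3 was the highest and EV replicate 5 the lowest library of all 5, with PHF19 OE between them. PRPF3, SF3B1 and PRPF39 were the 3 genes whose groups did not overlap in either comparison with the treated libraries lower in both. The share of all genes with this pattern was not counted, so these 3 are a description, and nothing is concluded from them about agreement. PRPF3 had 29.5 and 28.9 FPKM in PHF19 OE libraries, against 43.6, 38.8 and 32.5 FPKM in EV libraries (log2 fold change -0.37, adjusted p = 0.475).

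**Figure D5:**
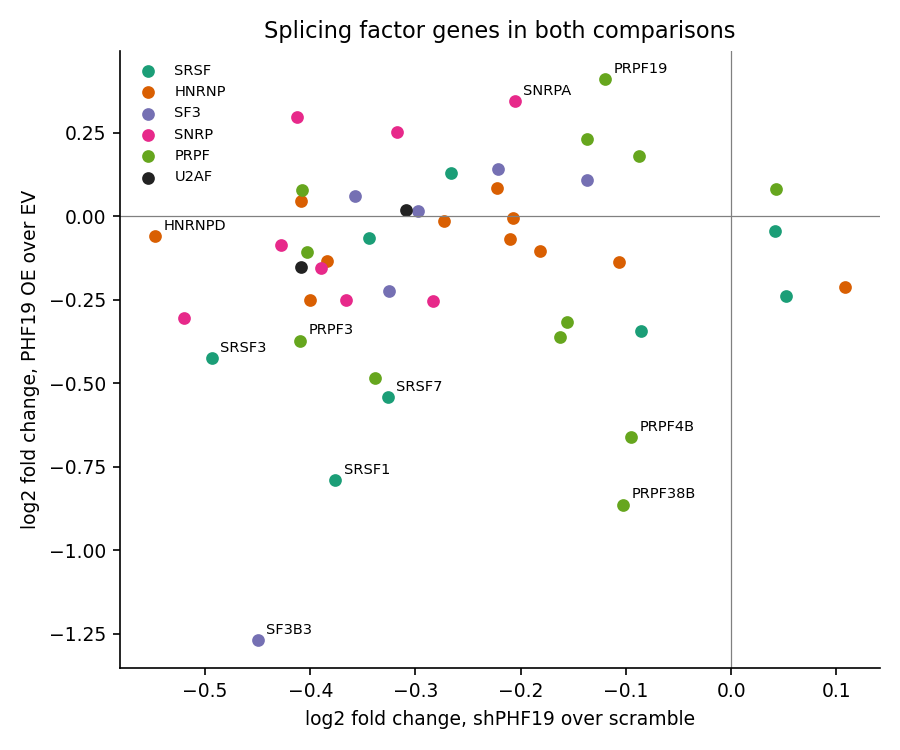
Log2 fold change in the knockdown (shPHF19 over scramble, horizontal) against that in the overexpression (PHF19 OE over EV, vertical) for the 47 genes with no listed 0, on log2(FPKM + 1), coloured by family. The points fill mainly the left side, 28 of them below 0 on both axes and 15 above 0 on the vertical axis.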

How the data were processed

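RNA-seq was measured in 11 ARP1 libraries, grouped by their sample titles. The values deposited by the authors are abundances normalised for length and depth in 2 tables. The authors' deposited values are called FPKM here, but no header names the unit and RPKM or TPM remain possible. The authors' p-value for each gene is in the tables too, per the file headers, without the name of its test. TopHat alignment to hg19 comes from the submitters' processing notes, with no version. Quantifier, annotation, strandedness and any gene filter of the authors are unknown here. Read depth and counting error are likewise unknown, and the number of libraries limits precision. Dates stand in place of 24 symbols in the knockdown data, and those genes stay unnamed.

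Since the tables were normalised separately, each was tested within itself. A gene entered the fit when it reached a value of 1 in 3 libraries (knockdown) or in 2 (overexpression). Values were fitted as log2(value + 1) by limma 3.58.1 (R 4.3.3) with trended, robust variances. Tests were two-sided, p-values were adjusted by Benjamini-Hochberg across every gene fitted, and calls were made under 0.05. The script was first tested on simulated data. Fold changes are on that log2 scale, which understates changes of low genes. Python 3.11.15 with pandas 2.3.3, numpy 2.4.6, scipy 1.17.1 and matplotlib 3.10.9 made the other tables and plots. By the authors' deposited p-values, 61 of 70 splicing factor genes in the knockdown and 8 of 57 in the overexpression were under 0.05, as were 8844 and 1426 of all genes, and these were not used further.

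The genes, lists and tests were chosen with earlier results of these data known. Named in full were genes that passed the test, in each family and comparison the 2 genes with the smallest adjusted p, the highest and lowest fold change and the 2 highest control means, any gene listed at 0, and called genes of the other lists. Other genes, such as SRSF1, SRSF9, SRSF11, HNRNPC, SNRPE, SNRPF and PRPF38A, were named after their values were seen. Replicate numbers 1 to 3 occur in both knockdown groups, with no label stating a pairing. Deviations from group means correlated at 0.341, 0.270 and 0.273 across 10900 genes for equal numbers and at -0.277 to 0.0936 for others. A further fit therefore took the numbers to pair the libraries, as a block, and is quoted wherever a call differs. The main counts and calls come from the fit without this pairing unless the block is named. Protein features were not analysed here. One gene is counted in the totals and not reported here by itself. Alternatives are listed in the closing section.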

Additional observations from a re-analysis of the deposited data

How the results depend on the processing

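In the knockdown the median of the 70 genes kept its sign in every alternative run, from -0.31 with median-of-ratios scaling to -0.20 with library weights, and 56 to 63 genes were below 0. Lower calls among them numbered 1 as reported, 0 with no filter, 3 with median-of-ratios scaling, 8 with the replicate block and 29 with library weights. Higher calls numbered 2 as reported and 4 with library weights. With 1 library left out, lower calls ran from 0 to 2, higher calls from 0 to 2 and the median from -0.30 to -0.21. Over all genes the calls ran from 601 as reported to 269 with no filter, 3161 with library weights, 1295 with the replicate block and 54 to 629 with 1 library left out. The replicate block changed no other call of a splicing factor gene named in the report. PHF19 in the knockdown was -0.54 to -0.28 with 1 library left out, none of them called, -0.45 (adjusted p = 0.00747) with library weights and -0.44 (adjusted p = 0.0445) with the replicate block. In the overexpression PHF19 was 0.93 without trend and robust variances (adjusted p = 0.0781), with a filter at 5 (0.0650), with a pseudocount of 0.1 (0.0532) and without genes at 0 (0.156), then 0.75 with quantile normalisation (0.166), 0.85 with median-of-ratios scaling (0.0548) and 0.88 to 0.97 with 1 library left out (0.149 to 0.264, except without EV replicate 5).

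Overexpression calls among splicing factor genes were 1 higher and 8 lower with library weights, and 0 to 2 in each direction with 1 library left out: HNRNPU and U2AF1L4 without PHF19 OE replicate 1, HNRNPL without PHF19 OE replicate 2, SNRPB without EV replicate 4, and PRPF4B, SF3B3 and SNRPD3 without EV replicate 5. Genes at 0 make up 5 of these 7. Over all genes the calls were 94 as reported, 61 with a pseudocount of 0.1, 36 with a filter at 5, 0 without genes at 0 and 1729 with library weights. The fold changes that changed sign were not called. With library weights they were SRSF5 (-0.015), PRPF19 (0.047) and PRPF8 (0.068) in the knockdown and SRSF9 (-0.14), SF3A1 (-0.43) and U2AF2 (-0.24) in the overexpression. With quantile normalisation they were SRSF9 (-0.038), SF3B2 (-0.10), SF3B5 (-0.048) and U2AF2 (-0.12), and with median-of-ratios scaling SF3B2 (-0.013) and U2AF2 (-0.057), all in the overexpression. With 1 library left out, the values ran from -0.029 to 0.14 for SRSF5 and -0.20 to 0.0098 for PRPF19 in the knockdown. In the overexpression they ran from -0.90 to 0.078 for SRSF3, -0.22 to 0.12 for HNRNPK, -0.18 to 0.48 for SF3A1, -0.058 to 0.23 for SF3B5, -0.51 to 0.17 for U2AF1 and -0.26 to 0.16 for U2AF2. The cause of these changes was not tested. No paired analysis was possible because PHF19 OE and EV libraries share no replicate numbers. The comparison of protein features was not run. Where 1 library was left out of PHF19 OE, the lone library was assumed to vary like the EV group.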
